A study of Homo sapiens with 16 samples.

Results

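MALAT1 and 4 other long RNAs, NEAT1, KCNQ1OT1, OIP5-AS1 and SNHG14, were followed in cytoplasmic RNA of human U2OS cells. They are 5 of the 60107 genes listed in each library, and all 5 are annotated as long non-coding RNA genes. MALAT1 was chosen by its result in these data, because it had the lowest p-value when doxycycline-treated parental cells were compared with untreated ones, and the other 4 were added, with that result known, as long RNAs grouped with it as nuclear-retained, a name that fits OIP5-AS1 only in part. Every value from the parental cells is therefore a description with no test, and the tests below come from the transgene line, which the choice did not use. Of the 5 RNAs, 5 passed the filter on low counts in the transgene line and 4 passed it in the parental line, where KCNQ1OT1 was too low.

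MALAT1 is a mostly unspliced RNA concentrated in nuclear speckles, where pre-mRNA splicing factors are stored, and NEAT1 is the scaffold on which paraspeckles assemble. Neither the MALAT1 3′ end nor that of the long NEAT1 isoform carries a poly(A) tail. RNase P cuts both RNAs just upstream of a tRNA-like fold, and a triple helix between U-rich stretches and an encoded A-rich tract then protects the new end, whereas the short NEAT1 isoform is polyadenylated in the usual way. KCNQ1OT1 and SNHG14 are long transcripts of imprinted domains that silence or overlap genes in cis, SNHG14 being the host of many small nucleolar RNAs and the antisense transcript of UBE3A. OIP5-AS1, also called cyrano, is a spliced RNA reported in both nucleus and cytoplasm that binds the RNA-stability factor HuR, the product of ELAVL1.

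Because the libraries were primed on poly(A), the 3′ ends are the sequences that bear on how these RNAs were counted. In GRCh38, MALAT1 lies on chr11:65497640-65508073 (plus strand), NEAT1 on chr11:65422774-65445540 (plus), KCNQ1OT1 on chr11:2597308-2700003 (minus), OIP5-AS1 on chr15:41283958-41322392 (plus) and SNHG14 on chr15:24978583-25420336 (plus), by GENCODE release 44. The last 80 bases of each mature end follow, read on the RNA's own strand from 5′ to 3′. For MALAT1 they stop at the base before MASCRNA, the tRNA-like product that RefSeq places on chr11:65506117-65506174. In the first pair, capitals mark the runs that MALAT1 and the long NEAT1 isoform have in common and the encoded run of A in MALAT1.
MALAT1, chr11:65506037-65506116: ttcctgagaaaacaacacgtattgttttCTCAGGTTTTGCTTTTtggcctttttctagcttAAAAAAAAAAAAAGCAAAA
NEAT1 long isoform, chr11:65445461-65445540: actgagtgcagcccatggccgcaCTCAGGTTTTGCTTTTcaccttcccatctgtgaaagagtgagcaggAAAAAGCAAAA
In the other ends, capitals mark the polyadenylation signal AATAAA.
NEAT1 short isoform, chr11:65426434-65426513: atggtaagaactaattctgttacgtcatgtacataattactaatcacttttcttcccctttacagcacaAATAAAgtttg
OIP5-AS1, chr15:41322313-41322392: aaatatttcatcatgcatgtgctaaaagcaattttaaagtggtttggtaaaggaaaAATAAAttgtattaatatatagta
KCNQ1OT1, chr11:2597308-2597387: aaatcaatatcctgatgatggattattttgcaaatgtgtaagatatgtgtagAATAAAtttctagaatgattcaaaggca
SNHG14, end of the RefSeq gene, chr15:25419383-25419462: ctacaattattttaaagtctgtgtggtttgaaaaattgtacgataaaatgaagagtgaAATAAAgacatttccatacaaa

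The MALAT1 end and the end of long NEAT1 shared a run of 16 bases, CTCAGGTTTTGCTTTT, that starts 52 bases from the MALAT1 end and 57 bases from the NEAT1 end, and they shared their last 11 bases. Among the last 80 bases of 54748 canonical GENCODE transcripts of genes in these libraries, read on the transcript's strand, the run of 16 was found in 1, which is NEAT1 itself because the canonical MALAT1 transcript extends past MASCRNA. MALAT1 carries an encoded run of 13 A directly before its last bases. A run of at least 10 A was found in 1.32% of the same 54748 ends and in 1.84% of the 13827 ends of long non-coding RNA genes. AATAAA was absent from both RNase P ends. It was present in the last 50 bases of the short NEAT1, OIP5-AS1 and KCNQ1OT1 ends and of the RefSeq SNHG14 end. The GENCODE canonical SNHG14 end did not hold it. Of canonical ends, 33.8% held it over all genes, 37.3% in long non-coding RNA genes and 64.2% in protein-coding genes. The short NEAT1 and RefSeq SNHG14 ends are not canonical ends. The window says nothing on where the tags of these libraries fell, since tag positions were not used here.

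U2OS-TR is an osteosarcoma cell line of human origin in which the tetracycline repressor is expressed. Control (n = 5) and Induced (n = 5) are U2OS-TR/ΔN-RNMT cells, in which doxycycline switches on an inactive, cytoplasmic form of the cap methyltransferase RNMT from an integrated CMV/TetO promoter in 1 clonal line. No Dox (n = 3) and With Dox (n = 3) are the parental U2OS-TR cells, which carry no transgene. Cells were split, left for 48 h, then given doxycycline and lysed 24 h later. The protocol attached to the libraries lists 1 µg/ml for all 16, whereas the group names mark only Induced and With Dox as treated, and the names were followed. Nuclei were pelleted and RNA of the supernatant was sequenced as QuantSeq REV 3′ tags, so each value is a level of tags in a cytoplasmic extract. No nuclear fraction was analysed here, and nuclear RNA left in the extract was not measured. How tags arose from ends without a poly(A) tail was not tested. The 2 lines also differ in sequencing site, instrument and read length, which cannot be told apart from the line, so no test was made between them.

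Each transgene library held 12527183 to 23251834 gene counts, and each parental one 1473286 to 3214808. For every count on a gene, 0.0744 to 0.106 tags fell outside genes in the transgene line and 1.11 to 1.50 in the parental line. Mitochondrial genes took 0.854% to 1.52% and 1.76% to 9.38% of gene counts in the 2 lines. RNMT, the targeted gene, was 74.3 ± 22.4 CPM (counts scaled to library size, with TMM factors within a line; SD, n = 5) in Control and 346 ± 78.0 in Induced, a log2 fold change of 2.22 (SE 0.23, edgeR quasi-likelihood test with Benjamini-Hochberg adjustment, adjusted p = 0.00805). Tags of the ΔN-RNMT transgene and of endogenous RNMT were not told apart in these RNMT counts. Of 7 bone markers, the matrix genes SPARC and COL1A1 were at 205 ± 42.6 and 72.6 ± 11.2 CPM in Control and the transcription factor RUNX2 at 7.70 ± 2.81 CPM. The other 4 were at or near 0, with COL1A2 and BGLAP at 0, ALPL at 0.372 ± 0.311 and SPP1 at 0.553 ± 0.228 CPM. Another 7 markers, those of other cell types, summed to 3.05 to 15.1 CPM over the 16 libraries. In the transgene line most of this was EPCAM, at 7.86 ± 2.31 CPM in Control, near the level of RUNX2, and at 12.1 ± 3.34 CPM in Induced. The methods call the libraries of the transgene line biological replicates and those of the parental line separate cultures, while the transgene line is 1 clone.

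MALAT1 did not differ between Control and Induced by more than the spread between libraries. It was at 589, 568, 521, 454 and 547 CPM in Control replicates 1 to 5, with a mean of 536 ± 52.3 CPM. In Induced it was at 576, 573, 608, 699 and 273 CPM, with a mean of 546 ± 161 CPM. Of the Induced libraries, 2 lay above all of Control and 1, replicate 5, lay below all of it. The log2 fold change was 0.03 (SE 0.22, edgeR adjusted p = 0.927). Without Induced replicate 5 it was 0.20 (SE 0.14, adjusted p = 0.253), so the estimate moved by most of its error with 1 library. That library also had the most multi-mapped tags, 1.33 for each gene count against 0.561 to 0.921 in the other Induced libraries, and the part of this in the MALAT1 value was not tested. In bulk RNA a smaller number of cells with the RNA and less RNA in each cell cannot be told apart.

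NEAT1 was lower in Induced. Control libraries held 341, 349, 343, 282 and 263 CPM and Induced libraries 214, 289, 243, 196 and 218 CPM. The groups overlapped through Induced replicate 2, and the other 4 Induced libraries were below every Control library. The means were 316 ± 40.0 and 232 ± 35.9 CPM, a log2 fold change of -0.44 (SE 0.16, edgeR quasi-likelihood test with Benjamini-Hochberg adjustment, adjusted p = 0.0410). This call was lost in 8 of the 10 fits that left out 1 library, with edgeR adjusted p between 0.0576 and 0.0981, and was kept without Control replicate 5 (0.0123) or Induced replicate 2 (0.0160). It was also lost when libraries were scaled by total gene counts alone, which raised the median over all genes from 0.04 to 0.28 on the log2 scale and gave -0.21 for NEAT1 (edgeR adjusted p = 0.206). The short and long NEAT1 isoforms share one gene identifier in the counts and were not separated.

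OIP5-AS1 was higher in Induced. It was at 70.3, 65.6, 48.4, 87.1 and 122 CPM in Control and at 154, 113, 139, 143 and 117 CPM in Induced. Control replicate 5 was the only Control library that reached into the Induced range, and 3 of 5 Induced libraries lay above all of Control. The means of 78.7 ± 28.0 and 133 ± 17.6 CPM gave a log2 fold change of 0.76 (SE 0.23, edgeR adjusted p = 0.0254), which is 1.69-fold. ELAVL1, whose protein OIP5-AS1 is known to bind, was at 63.5 ± 23.1 CPM in Control and 117 ± 42.5 in Induced, higher by 0.88 on the log2 scale (SE 0.29, edgeR adjusted p = 0.0335). The OIP5-AS1 call was lost without Control replicate 1 or 2 or without Induced replicate 1, 3 or 4 (edgeR adjusted p from 0.0570 to 0.0668). OIP5-AS1 overlaps OIP5 on the opposite strand and the start of NUSAP1 on its own, and whether the counting used strand is not stated.

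SNHG14 was also higher in Induced. Control libraries were at 21.5, 20.0, 28.4, 19.2 and 32.0 CPM and Induced libraries at 43.3, 27.3, 35.9, 41.8 and 35.3 CPM. All Induced libraries but replicate 2 were above every Control library. The means were 24.2 ± 5.66 and 36.7 ± 6.30 CPM, with a log2 fold change of 0.60 (SE 0.19, edgeR adjusted p = 0.0310). The call was lost without Control replicate 1, 2 or 4 or without Induced replicate 1, 3 or 4 (edgeR adjusted p from 0.0614 to 0.0791). With offsets for the GC content of each gene the log2 fold change was 0.12 (adjusted p = 0.539) for SNHG14 and 0.35 (adjusted p = 0.118) for OIP5-AS1, whereas NEAT1 moved to -0.69 (adjusted p = 0.0272). SNHG14 and OIP5-AS1 have the lowest GC content of the 5 RNAs, 37.5% and 38.6%, against 42.0% in MALAT1, 43.7% in KCNQ1OT1 and 44.1% in NEAT1. These values, and the offsets, are of the longest transcript of each gene and not of the 3′ ends that were sequenced.

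KCNQ1OT1 was near the limit of detection. It had 29 to 44 counts in Control libraries and 8 to 49 in Induced ones, and its means were 1.85 ± 0.418 and 1.52 ± 0.659 CPM. Its lowest library was again Induced replicate 5, at 0.475 CPM. The log2 fold change was -0.27 (SE 0.34, edgeR adjusted p = 0.534), and without Induced replicate 5 it was -0.04 (SE 0.24, adjusted p = 0.908). A difference was not detectable at these counts and this spread between libraries.

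Of the 5 RNAs, 3 were called in the transgene line, 2 of them higher and 1 lower. The background was high, since 39.8% of the 13038 genes tested were called, 20.0% as higher and 19.8% as lower, so calls in 3 of 5 genes are not set apart from the rest of the transcriptome. The groups of all 5 RNAs overlapped, while 7.30% of all genes had groups that did not. Scaling by total counts alone turned the split of all calls from 2604 higher and 2579 lower to 4022 and 1401. Long non-coding RNA genes as a class had 78 called higher and 236 lower among 1017 tested, with a median log2 fold change of -0.22, beside 0.04 over all genes, though with total counts alone 128 were higher and 120 lower. OIP5-AS1 and SNHG14 were thus among the fewer members of that class called higher, and NEAT1 among those called lower. The plot of levels by library shows these differences beside the parental libraries, and the plot of fold changes by setting shows how often each call held.

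**Figure D1:**
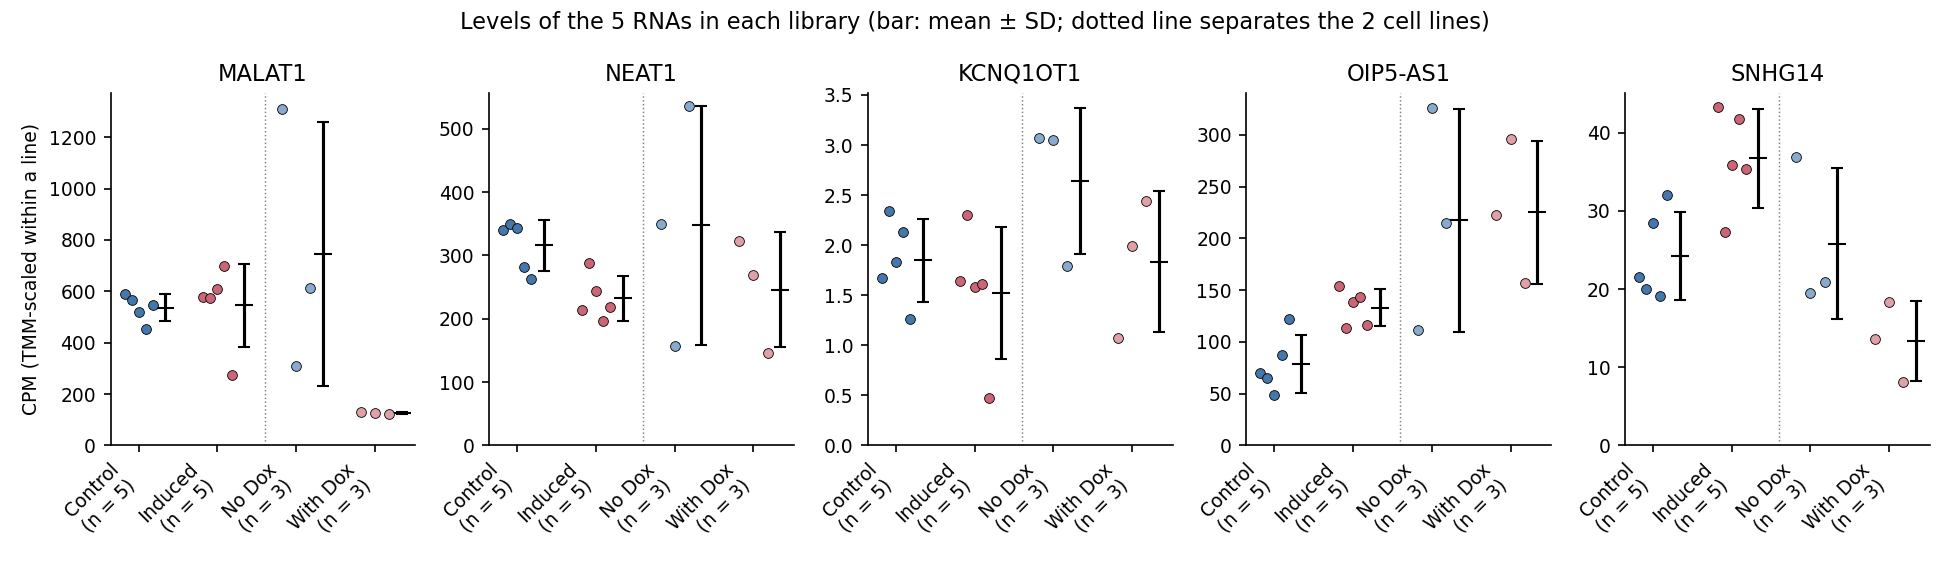
Level of each of the 5 RNAs in every library (points, CPM scaled by TMM within a line, each axis from 0), by group, with the mean ± SD. MALAT1 in With Dox lies at 121 to 129 CPM, below all No Dox libraries, and NEAT1, OIP5-AS1 and SNHG14 differ between Control and Induced with 1 or more overlapping libraries.

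**Figure D2:**
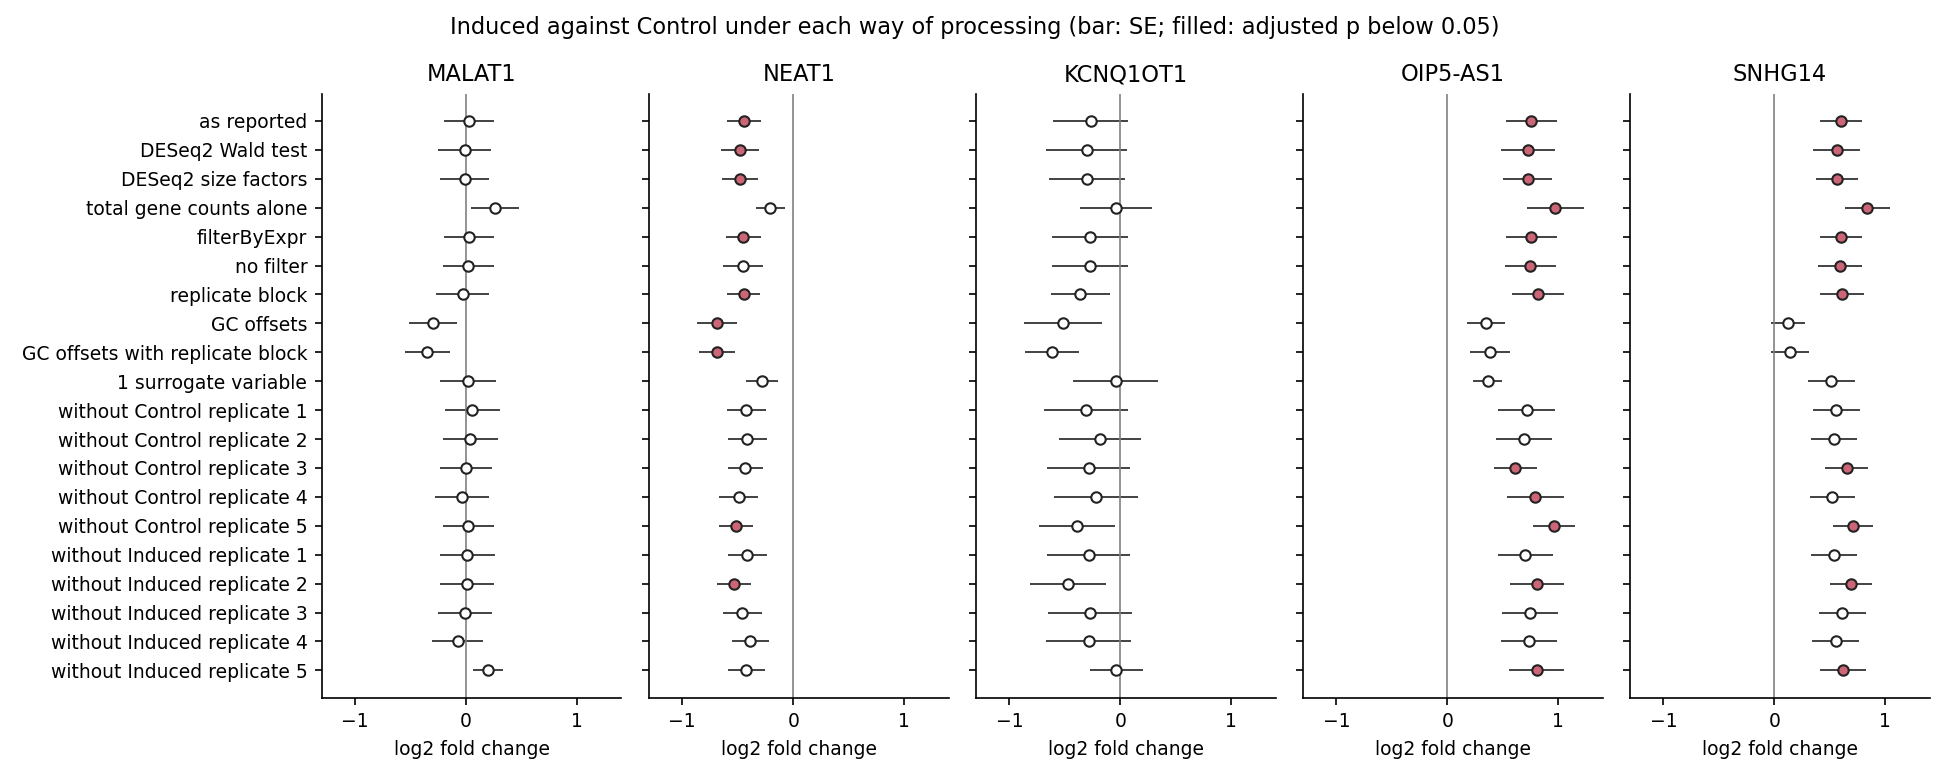
Log2 fold change of Induced against Control (x axis) for each RNA under each way of processing and with each library left out (rows), with the SE as a bar and filled points for an adjusted p below 0.05. MALAT1 and KCNQ1OT1 have no filled point, and NEAT1 stays below 0 and OIP5-AS1 and SNHG14 above 0 in all rows.

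In the parental cells, where MALAT1 was selected by its own result, it was at 1310.4, 311 and 612 CPM in the 3 No Dox libraries and at 129, 126 and 121 CPM in the 3 With Dox libraries. The untreated libraries thus spread widely among themselves, and the treated ones lay close together. The means were 745 ± 513 and 125 ± 4.39 CPM and the log2 fold change was -2.57, the 4th lowest of 9124 genes. Without No Dox replicate 1 it was -1.80. That library had the highest MALAT1 level, the most tags outside genes (1.50 for each gene count) and the largest mitochondrial share (9.38%), and the part of these in the MALAT1 difference was not tested. The MALAT1 counts behind these values were 510 to 2131 in No Dox and 148 to 362 in With Dox.

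The other RNAs gave no common picture in the parental cells. SNHG14 was at 36.9, 19.5 and 21.0 CPM in No Dox and 13.6, 18.3 and 8.15 CPM in With Dox, again with every treated library below every untreated one, and a log2 fold change of -0.92. In 4.66% of the 9124 genes above the filter, every With Dox library was below every No Dox library, and nothing is read from this share since MALAT1 was picked on this contrast. NEAT1 was at 349, 157 and 535 CPM in No Dox and 323, 269 and 147 CPM in With Dox (log2 fold change -0.50), and OIP5-AS1 at 111, 326 and 215 against 223, 296 and 157 CPM (0.05). Both overlapped between groups, and the NEAT1 value was 0.01 without No Dox replicate 3. KCNQ1OT1 had 3 to 6 counts in each parental library, too few to compare.

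Because scaling cancels within a library, the ratio of MALAT1 to NEAT1 counts was also taken, as a relative measure only, since the RNAs differ in length and in how their ends are primed. There were 1.71 ± 0.217 MALAT1 counts for each NEAT1 count in Control and 2.40 ± 0.861 in Induced. The Induced ratios spread from 1.25 in replicate 5 to 3.57 in replicate 4 and overlapped Control, where they ran from 1.52 to 2.08. The ratio was 2.29 ± 1.33 in No Dox and 0.564 ± 0.226 in With Dox, with every treated library below every untreated one. The parental ratio is a description only, since MALAT1 was chosen for its low level in With Dox and a ratio built on it had to be low there.

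The 5 RNAs varied together in some pairs and not in others over the 10 transgene libraries. MALAT1 had r = 0.11 with NEAT1, 0.07 with OIP5-AS1 and 0.06 with SNHG14 on log2 CPM, and r = 0.76 with the sparse KCNQ1OT1, both being lowest in Induced replicate 5. NEAT1 ran against OIP5-AS1 (r = -0.89) and SNHG14 (r = -0.84), and within groups, after each group's mean was taken out, these were -0.72 and -0.60. OIP5-AS1 and SNHG14 ran together (r = 0.73, and 0.35 within groups), as did NEAT1 and KCNQ1OT1 (0.50, and 0.42 within groups). KCNQ1OT1 had r = -0.32 with OIP5-AS1 and -0.46 with SNHG14. All these values describe 10 libraries that share depth, scaling and a treatment.

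**Figure D3:**
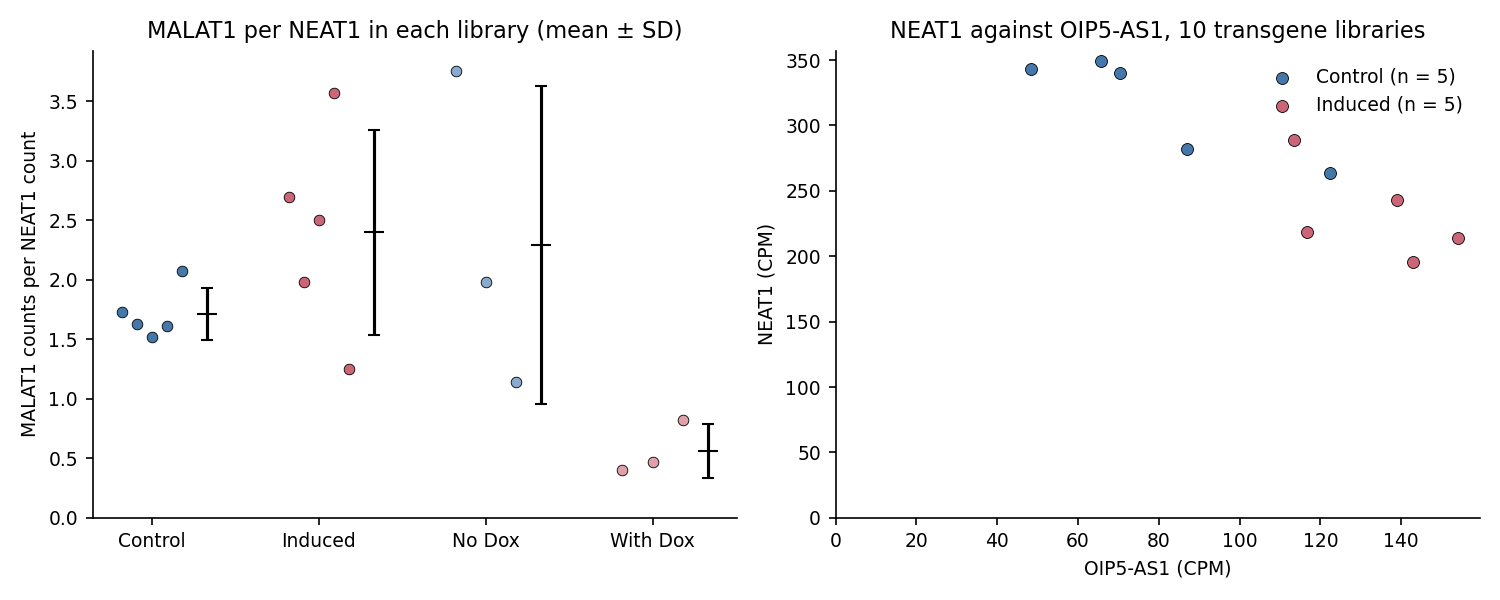
Left, MALAT1 counts for each NEAT1 count in every library (points) with the mean ± SD, where With Dox lies between 0.401 and 0.822. Right, NEAT1 against OIP5-AS1 (CPM) in the 5 Control and 5 Induced libraries, where libraries with more OIP5-AS1 held less NEAT1.

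The genes whose log2 CPM was most like that of MALAT1 over the 10 transgene libraries, of all genes tested, were MAP9 (r = 0.95), which encodes a microtubule-associated protein, the unnamed long non-coding RNA gene ENSG00000276101 (0.94), SEC63 (0.93), a component of protein import into the endoplasmic reticulum, CEBPZ (0.93) and NEXN (0.93), which encodes an actin-binding protein. Much of this likeness came from Induced replicate 5. Without that library, r was 0.69 for MAP9, 0.71 for ENSG00000276101, 0.86 for SEC63, 0.80 for CEBPZ and 0.48 for NEXN. None of these 5 genes was called between Control and Induced, the edgeR adjusted p running from 0.573 to 0.990.

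Genes around these RNAs were then counted in 11 lists, which hold 150 genes, 119 of them tested. Of these, 47 were called (39.5%), 26 higher and 21 lower, a share near the 39.8% of all genes. The count fell to 21, 18 and 30 without Control replicate 1, 2 or 4, as the share of all genes called fell to 19.6%, 16.6% and 25.3%. It fell to 17, 21 and 16 without Induced replicate 1, 3 or 4, as that share fell to 14.3%, 17.6% and 14.5%. The count ran from 34 to 65 when each of the others was left out, as 28.6% to 58.5% of all genes were called.

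Paraspeckle proteins, which assemble on NEAT1, had 8 of 24 tested genes called higher, against 20.0% of all genes, and 0 lower, with a median log2 fold change of 0.45 beside 0.04 over all genes, while NEAT1 itself fell. HNRNPH3 rose from 93.8 ± 65.6 to 486 ± 256 CPM (log2 fold change 2.37, SE 0.53, edgeR adjusted p = 0.0175). HNRNPF rose from 96.8 ± 136 to 474 ± 198 CPM (2.29, SE 0.77, adjusted p = 0.0357) and EWSR1 from 41.0 ± 34.8 to 148 ± 69.6 CPM (1.85, SE 0.54, adjusted p = 0.0236). All 3 encode RNA-binding proteins with many roles outside paraspeckles. HNRNPA1, a splicing regulator, rose from 358 ± 134 to 725 ± 190 CPM (1.02, adjusted p = 0.0182), and DAZAP1 was at 608 ± 80.2 and 493 ± 13.2 CPM (-0.30, adjusted p = 0.0918). The count of higher genes was 13 with total counts alone, where 4022 of all 13038 genes were higher. It was 7 with GC offsets, where 1604 of all 12922 genes were higher. With these offsets 1 gene of the list was called lower, as were 1966 of all genes.

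Nuclear speckle proteins, the company of MALAT1, had 6 of 24 called higher, near the 20.0% of all genes, and 1 lower, against 19.8%, with a median of 0.25 beside 0.04. SRSF7 rose from 112 ± 44.8 to 191 ± 43.4 CPM (log2 fold change 0.77, edgeR adjusted p = 0.0364) and SRSF4 from 24.5 ± 3.50 to 38.5 ± 8.70 CPM (0.65, adjusted p = 0.0214), while SRSF5 fell from 481 ± 112 to 301 ± 35.2 CPM (-0.68, adjusted p = 0.0194). SRSF1, another splicing factor of this family and one tied to MALAT1, was at 223 ± 401 and 1007 ± 499.6 CPM (2.17, SE 0.97, adjusted p = 0.0871), and was not called. With GC offsets 1 was called higher and 3 lower, beside 1604 higher and 1966 lower among all 12922 genes tested. The balance over all genes thus also moved towards lower with that correction.

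Genes that mature or bind the MALAT1 type of 3′ end were counted next. Of 12 tested genes, which encode RNase P subunits, the tRNA 3′ processing enzyme ELAC2 and METTL16, a protein that binds the MALAT1 triple helix, 4 were lower, against 19.8% of all genes, and 0 higher, against 20.0%, with a median of -0.12 beside 0.04. POP7, an RNase P and MRP subunit, fell from 1034 ± 166 to 610 ± 124 CPM (log2 fold change -0.76, edgeR adjusted p = 0.0175), RPP21 from 2.64 ± 0.363 to 0.888 ± 0.297 CPM (-1.55, adjusted p = 0.0175) and ELAC2 from 30.2 ± 9.29 to 18.5 ± 3.55 CPM (-0.71, adjusted p = 0.0307). POP4 was at 58.4 ± 4.13 and 55.0 ± 4.28 CPM (-0.09, adjusted p = 0.579). With total counts alone 2 genes were called lower and 2 higher, beside 1401 lower and 4022 higher among all 13038 genes tested.

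The list of nuclear poly(A) RNA decay holds exosome nucleases and cofactors as well as factors that bring RNA to the exosome. It had 6 of 12 genes called higher, against 20.0% of all genes, and 2 lower, against 19.8%, with a median of 0.52 beside 0.04. RBM7, of the nuclear exosome targeting complex, rose from 3.06 ± 0.941 to 10.7 ± 4.21 CPM (log2 fold change 1.80, edgeR adjusted p = 0.0175). RBM27 rose from 17.4 ± 5.60 to 37.2 ± 12.4 CPM (1.09, adjusted p = 0.0182). PABPN1, the nuclear poly(A)-binding protein, rose from 79.7 ± 51.0 to 166 ± 27.1 CPM (1.06, adjusted p = 0.0495), and a readthrough transcript from BCL2L2 shares its 3′ end. MPHOSPH6, an exosome cofactor, was at 177 ± 38.7 and 120 ± 35.4 CPM (-0.56, adjusted p = 0.0660). With total counts alone 6 were called higher and 0 lower, beside 4022 higher and 1401 lower among all 13038 genes tested.

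**Figure D4:**
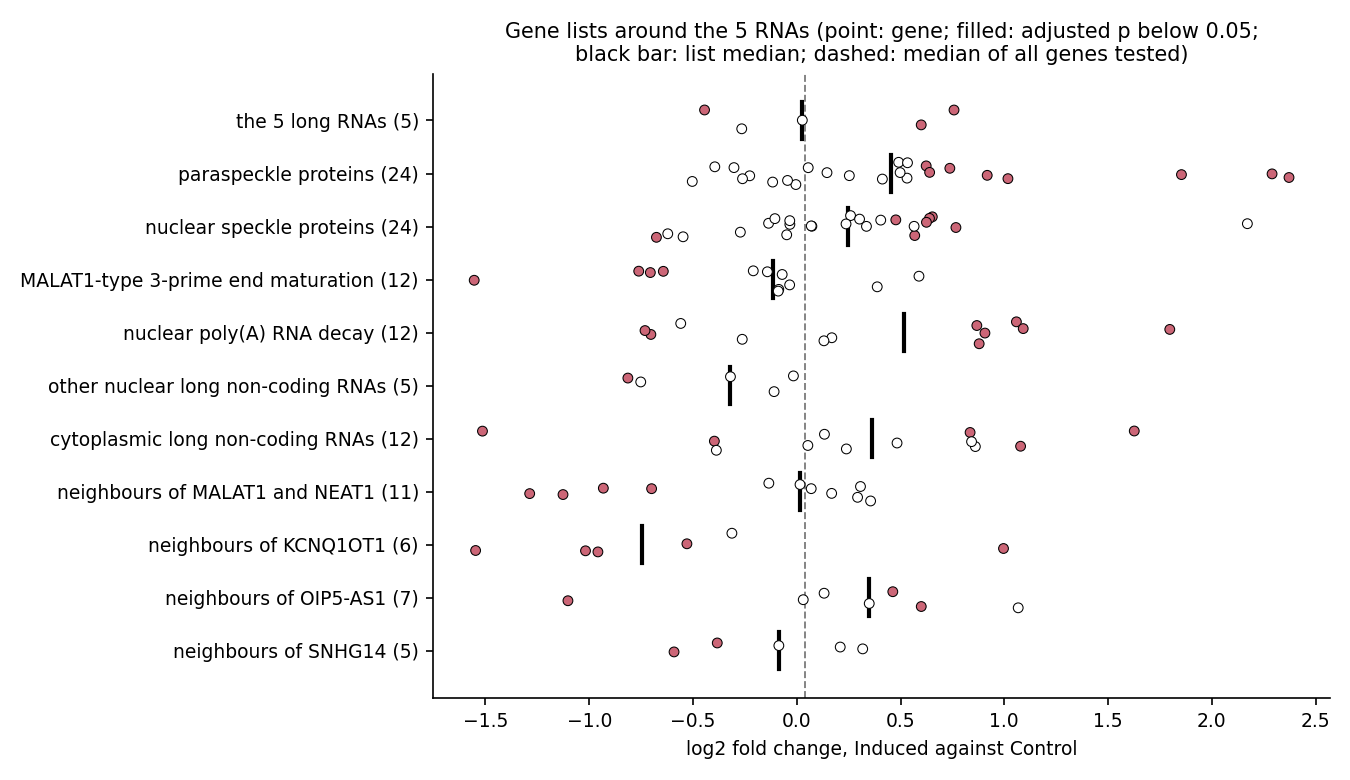
Log2 fold change of Induced against Control (x axis) of each tested gene of the 5 RNAs and of 10 lists (rows, number tested in brackets), filled where the adjusted p was below 0.05, with the list median as a black bar and the median of all genes, 0.04, as a dashed line. The medians run from -0.74 for the neighbours of KCNQ1OT1 to 0.52 for nuclear poly(A) RNA decay over the lists plotted, which leave out the small nuclear and nucleolar RNAs, where a single gene was tested.

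Calls among other long non-coding RNAs went in both directions. Of 12 others listed here as mainly nuclear, 5 were tested, with a median log2 fold change of -0.32, beside -0.22 over all long non-coding RNA genes tested. Of these 5, 1 was called, against 39.8% of all genes, namely PVT1. It fell from 39.5 ± 12.3 to 22.5 ± 4.89 CPM (log2 fold change -0.81, edgeR adjusted p = 0.0226). TUG1 was at 61.3 ± 5.82 and 60.6 ± 7.23 CPM (-0.02, adjusted p = 0.929). Of 12 that are mainly cytoplasmic or hosts of small nucleolar RNAs, 3 were higher and 2 lower, near the 20.0% and 19.8% of all genes, with a median of 0.36. ZFAS1 rose from 91.7 ± 99.8 to 283 ± 117 CPM (1.63, adjusted p = 0.0477), SNHG15 from 7.76 ± 5.08 to 16.5 ± 4.31 CPM (1.08, adjusted p = 0.0411), and SNHG1 fell from 352 ± 184 to 123 ± 55.3 CPM (-1.51, adjusted p = 0.0177). SNHG8 and SNHG6, the highest in counts on the mean over Control and Induced, were not called (0.48 and 0.84, adjusted p = 0.353 and 0.0848).

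Small nuclear and nucleolar RNAs, most of which lack poly(A) tails and reside in the nucleus, were nearly absent. Of the 14 listed in the counts, 5 were at 0 in Control and 6 in Induced, and their summed level was 7.16 to 18.5 CPM in Control, 3.88 to 133 in Induced, 3.59 to 17.2 in No Dox and 3.59 to 8.96 in With Dox. The highest sum, 133 CPM, was again that of Induced replicate 5 and came mainly from RNU4ATAC, a minor spliceosome RNA (129 CPM), the only one of the list tested (log2 fold change 1.93, SE 0.89, edgeR adjusted p = 0.0952). Of the 10 transgene libraries, MALAT1 was lowest in that one, and the link was not tested.

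The neighbours of the 5 RNAs on their chromosomes were counted next, since KCNQ1OT1 and SNHG14 act in cis on imprinted genes. Around MALAT1 and NEAT1, 4 of 11 tested genes were lower and 0 higher, so that the share called was near the 39.8% of all genes, of which 19.8% were lower. LTBP3, a TGF-beta binding protein whose start site is 61.3 kb downstream of that of MALAT1, fell from 139 ± 56.5 to 57.0 ± 14.0 CPM (log2 fold change -1.29, edgeR adjusted p = 0.0175), and EHBP1L1, at 78.4 kb, from 43.2 ± 24.0 to 19.8 ± 5.09 CPM (-1.13, adjusted p = 0.0261). SLC25A45 and CDC42EP2, both upstream, fell by 0.93 and 0.70 on the log2 scale (adjusted p = 0.0305 and 0.0456). Genes lying between these, such as FRMD8 at 214 ± 105 and 265 ± 37.4 CPM (0.31, edgeR adjusted p = 0.448), were not called. With GC offsets 1 of the 11 was called lower and 1 higher, as 27.6% of all genes tested were called.

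Around KCNQ1OT1, 4 of 6 tested neighbours were lower, against 19.8% of all genes, and 1 was higher, against 20.0%. CDKN1C, a cyclin-dependent kinase inhibitor gene of the imprinted domain, rose from 8.82 ± 3.43 to 17.7 ± 5.29 CPM (log2 fold change 1.00, edgeR adjusted p = 0.0239), while KCNQ1OT1 itself was not called. PHLDA2 and SLC22A18 of the same domain fell by 0.53 and 0.96 (both adjusted p = 0.0227). TSSC4 and CD81, which lie beyond the start of KCNQ1, fell by 1.02 (adjusted p = 0.0219) and 1.55 (adjusted p = 0.0175). KCNQ1, within which KCNQ1OT1 lies on the opposite strand, did not pass the filter. With GC offsets 1 of the 6 was called lower and 1 higher, as 27.6% of all genes tested were called.

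Around SNHG14, 2 of 5 tested genes were lower, against 19.8% of all genes, and 0 higher, against 20.0%. SNRPN, the spliceosomal protein gene just upstream, fell from 246 ± 56.5 to 164 ± 12.5 CPM (log2 fold change -0.59, edgeR adjusted p = 0.0251). NDN, with its start site far upstream at -1291 kb from that of SNHG14, fell from 106 ± 3.49 to 81.6 ± 7.88 CPM (-0.38, edgeR adjusted p = 0.0310). SNHG14 itself rose. With total counts alone, 1 of the 5 tested genes was called higher and 0 lower, beside 4022 higher and 1401 lower among all 13038 genes. SNRPN shares sequence with SNURF and overlaps the SNHG14 start, so their tags may be split between them. In the parental cells the directions were the other way round, SNHG14 at -0.92 beside 1.39 for SNRPN and 1.19 for NDN, and that difference between lines was not tested. Around OIP5-AS1, 2 of 7 tested genes were higher, against 20.0% of all genes, and 1 was lower, against 19.8%. RTF1, a transcription elongation factor, and CHP1 rose by 0.60 (edgeR adjusted p = 0.0321) and 0.46 (adjusted p = 0.0460), and ITPKA fell by 1.10 (adjusted p = 0.0175). OIP5, the antisense partner, was at 90.6 ± 74.5 and 190 ± 32.2 CPM (1.07, SE 0.54, adjusted p = 0.121).

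**Figure D5:**
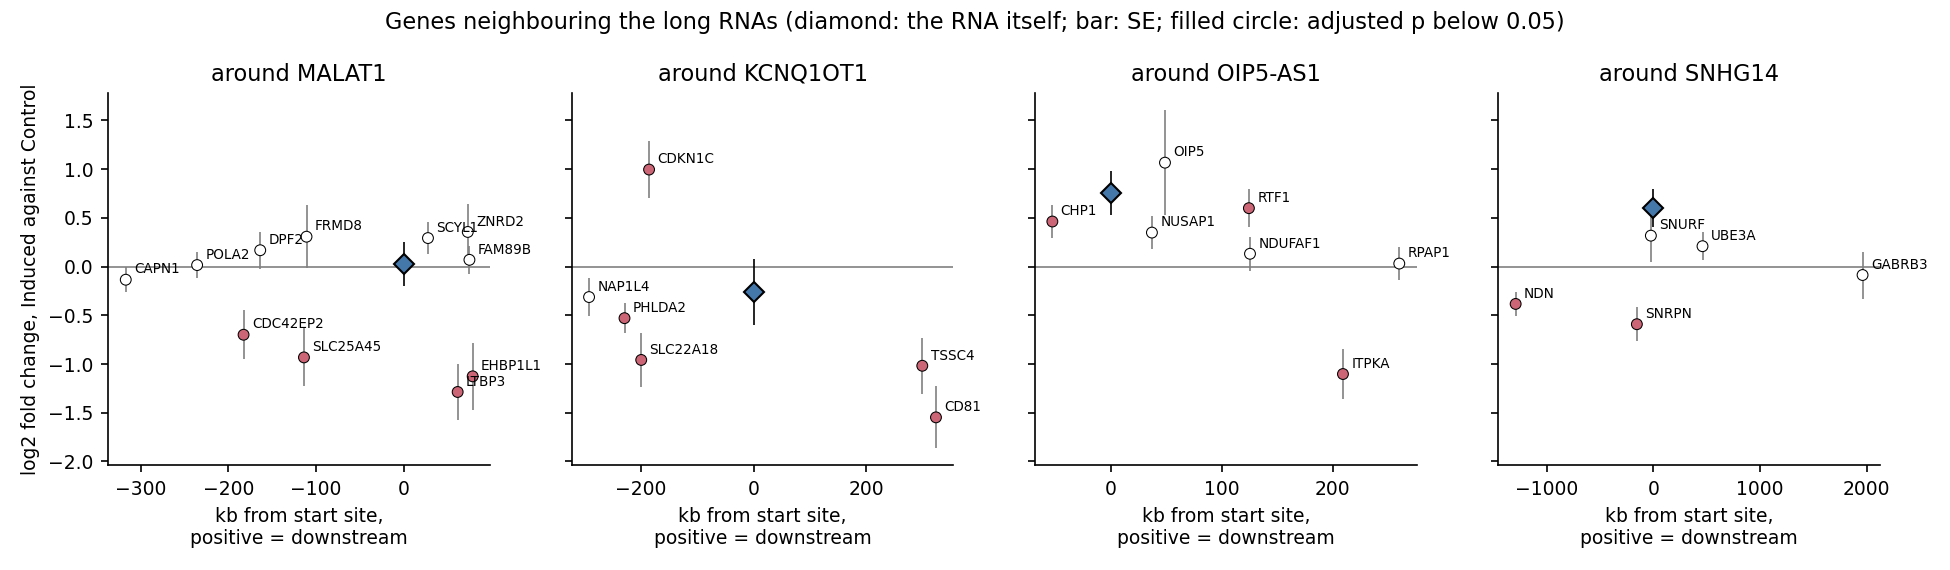
Log2 fold change of Induced against Control (y axis, SE as bars) of tested neighbouring genes by the distance of their start site from that of the long RNA, in kb along its direction of transcription (x axis), with the RNA itself as a diamond. Called genes (filled) lie on both sides of the RNAs, and the 4 calls around MALAT1 are below 0 while MALAT1 lies at 0.03. With GC offsets, though, 1 neighbour of MALAT1 was called lower and 1 higher, as 27.6% of all genes tested were called.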

How the data were processed

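The deposited files hold raw counts, whole numbers of QuantSeq REV 3′ tags per Ensembl gene, which the authors obtained separately for each library from Lexogen's pipeline for this kit on GRCh38, with no normalization. The aligner, annotation and use of strand are not given in the sources used here. Each library lists 60107 genes, 92 spike-in entries, all at 0, and 5 summary entries that were left out. GENCODE release 44 named 56104 genes. Within each line, genes with a base mean above 20 were fitted by edgeR 4.0.16 under R 4.3.3. Library sizes were scaled by TMM, the quasi-likelihood test was used, p-values were adjusted by Benjamini-Hochberg over all genes tested, and a call is an adjusted p below 0.05. The SE of a log2 fold change is its size over the square root of the test statistic. Log2 levels used a prior count of 2. Alternatives used DESeq2 1.42.0 and sva 3.50.0, tables were made with Python 3.11.15, and the fits were tested on simulated data. They were DESeq2's Wald test and size factors, total counts alone, no filter or filterByExpr, replicate number as block, GC offsets (lowess, span 0.5) alone or with the block, 1 surrogate variable, and leaving out each library. Means are of TMM-scaled CPM with the SD over libraries. Sequences were read from GRCh38 with ends from GENCODE and RefSeq, and AATAAA and A runs were searched on the transcript's strand. The members and lists were chosen with earlier results of these data known. Named genes were the 5 RNAs, RNMT, ELAVL1, up to 3 called genes of each list with the largest change and its 2 with the highest level, every called neighbour, and the 5 genes most like MALAT1.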

Additional observations from a re-analysis of the deposited data

Results flagged for a closer look

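SNHG14 rose in Induced against Control (log2 fold change 0.60), with every Induced library above the Control mean, and was lower in all With Dox libraries than in all No Dox ones (-0.92). These opposite directions in the 2 lines were not tested as a difference.

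ELAVL1 in Induced replicate 5 stood at 192 CPM, apart from the other 4 Induced libraries at 85.0 to 105 CPM. It was the only extreme value past the cutoff among 24 groups of 5 libraries checked, and chance alone marks about 1 in 20 such groups. The cutoff was a gap to the next library of 0.71 of the group's range. In the same library MALAT1 and the summed small nuclear and nucleolar RNAs came just short of it, at 0.703 and 0.699.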

How the results depend on the processing

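Of the 3 calls, only NEAT1 was kept with GC offsets (1 call), where 27.6% of all genes tested were called. The same held with GC offsets and the replicate block (1 call), where 31.4% were called. With 1 surrogate variable none was kept (0 of 5 in edgeR), where 1 of 13038 genes was called, and 0 of the genes in the 11 lists. In that edgeR fit 2 of 5 RNAs and 40 list genes had an unadjusted p below 0.05. The share of all genes at that threshold was not computed. MALAT1 changed sign to -0.0117 with DESeq2's Wald test and with its size factors, -0.0306 with the replicate block, -0.30 with GC offsets and -0.35 with both. NEAT1 was no longer called with total counts alone (-0.21), no filter (-0.45) or 1 surrogate variable (-0.28). OIP5-AS1 was not called with GC offsets (0.35), those with the block (0.38) or the surrogate variable (0.36), nor SNHG14 (0.12, 0.14 and 0.51). With the replicate block alone all 3 were called by edgeR (NEAT1 -0.45, OIP5-AS1 0.82, SNHG14 0.61). Same-numbered libraries did not deviate together (mean r 0.026 in the transgene line, from -0.373 to 0.625), and the labels do not tie them, so the numbers were not taken as pairs.

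With 1 library left out, 0 to 3 RNAs were called, as 14.3% to 58.5% of all genes were called. All 3 had an unadjusted edgeR p below 0.05 each time, and the share of all genes at that threshold was not computed. The log2 fold changes ran from -0.0763 to 0.20 for MALAT1, -0.54 to -0.39 for NEAT1, -0.47 to -0.04 for KCNQ1OT1, 0.61 to 0.96 for OIP5-AS1 and 0.52 to 0.71 for SNHG14, and 16 to 65 list genes were called. In the parental line MALAT1 ran from -2.87 to -1.80, NEAT1 from -0.78 to 0.01, OIP5-AS1 from -0.19 to 0.54 and SNHG14 from -1.17 to -0.50. The counts of KCNQ1OT1, 8 to 49 in a transgene library, limit its value, and so does Induced replicate 5, without which its SE was 0.24 rather than 0.34.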
